A study of Mus musculus with 6 samples.

Results

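The gene set described here holds 43 mouse imprinted genes, chosen by name as known imprinted loci. All 43 were found in the gene annotation: 35 are protein-coding and 8 are long noncoding RNAs (lncRNAs), against 21747 protein-coding and 32852 lncRNA genes in all. By their known imprinting, 26 are expressed from the paternal allele, 15 from the maternal allele, and 2, Gnas and Grb10, from either allele depending on promoter or tissue. Each interval of a deposited list was counted for a gene when its annotated transcript or its nearest promoter belonged to that gene.

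The data are CUT&RUN profiles: antibody-bound chromatin is cut out of the nucleus by a nuclease and sequenced. The cells were prospermatogonia (fetal male germ cells) at E16.5, late in gestation. Both antibody groups used here, H3K4me3 and TAF4b with 2 replicates each, came from male C57BL/6 embryos labelled Taf4b-wildtype. All embryos came from matings of mice homozygous for an Oct4-EGFP transgene (Pou5f1tm2Jae), and fluorescence sorting divided the gonad cells. H3K4me3 is a histone mark of active and poised promoters, and TAF4b is a gonad-enriched subunit of the general transcription factor TFIID. The 2 IgG control libraries were not analysed here, so no antibody background stands beside the counts. The labels do not say whether replicates came from separate embryos, so the spread between them may be technical.

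Imprinted genes are expressed from 1 parental allele, which is set by DNA methylation laid down in the germ line at germline differentially methylated regions. In fetal germ cells of both sexes the inherited marks are erased. Male germ cells then write new methylation at the few paternally methylated regions (H19 and Igf2, Dlk1 and Meg3, Rasgrf1, Zdbf2), while the maternally methylated regions, most of them promoters, stay unmethylated in the male germ line. H3K4me3 is known to hinder the DNA methyltransferases that write these marks. No value here separates the parental alleles, so the parental classes below are background knowledge and not measurements.

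The 4 lists differed greatly in length. H3K4me3 replicate 1 held 64891 regions with a median width of 779 bp, and replicate 2 held 1730 with a median of 500 bp. TAF4b replicate 1 held 7861 peaks and replicate 2 held 848, at fixed widths of 142 and 188 bp. Depth is unknown. The authors' score has no stated scaling and was used only for ranks within 1 list, where rank 1 is the highest score. As a check of the cell type, 7 of 12 germ cell markers (Dazl, Ddx4 and Mael among them) and 1 of 13 somatic testis markers (Nr5a1) had a TAF4b promoter peak in replicate 1, where 24.9% of all protein-coding genes had one. For H3K4me3 replicate 1 the counts were 7 of 12 and 6 of 13, both near the 48.6% of all protein-coding genes, with Sox9, Wt1 and Gata4 among the somatic genes. Counting instead regions that cover a gene start, a rule given below, they were 9 of 12 (75.0%) and 5 of 13 (38.5%). By that rule 58.9% of all protein-coding genes had a region. No germ cell marker had a promoter interval in either replicate 2 list, and 1 somatic marker, Wt1, had one in H3K4me3 replicate 2.

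Imprinted genes held 113 regions of H3K4me3 replicate 1, 7 of replicate 2, 28 TAF4b peaks of replicate 1 and 2 of replicate 2. In H3K4me3 replicate 1, 26 of 43 genes (60.5%) had a promoter region, meaning a region of the deposited class promoter-TSS. Of the protein-coding members the count was 24 of 35 (68.6%), where 48.6% of all protein-coding genes had one. In replicate 2 the count was 6 of 43 members, and 5 of 35 (14.3%) for protein-coding members beside 4.78% of all protein-coding genes. Over both replicates the share of members was 37.2% ± 32.9 (SD, n = 2), so the spread between the libraries was nearly as large as the mean.

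The promoter-TSS class is set by the centre of an interval, so a wide region across a start can be classed as exon or intron. A second rule therefore asked whether a region covers a curated transcript start of the gene (GENCODE M39, automatically extended models left out). By that rule 30 of 43 genes had a region in replicate 1, with 26 of 35 (74.3%) protein-coding members beside 58.9% of all protein-coding genes. In replicate 2 it was 5 of 43, all protein-coding, or 14.3% of 35 beside 4.12%. Peg3, Usp29, Snrpn, Kcnq1ot1, Airn, Peg13, Magel2, Mkrn3, Ascl2, H13, Slc38a4 and Nespas gained a region under the covering rule. H19, Meg3, Zdbf2, Ddc, Grb10, Impact, Herc3 and Mcts2 lost theirs. Igf2r (score 52.2) and Ndn, a MAGE family gene (score 101.4 at 2221 bp from its start), had regions inside the gene by neither rule. Among lncRNA members 2 of 8 had a promoter-class region (6.18% of all lncRNA genes) and 4 of 8 a covering region (25.5%).

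**Figure D1:**
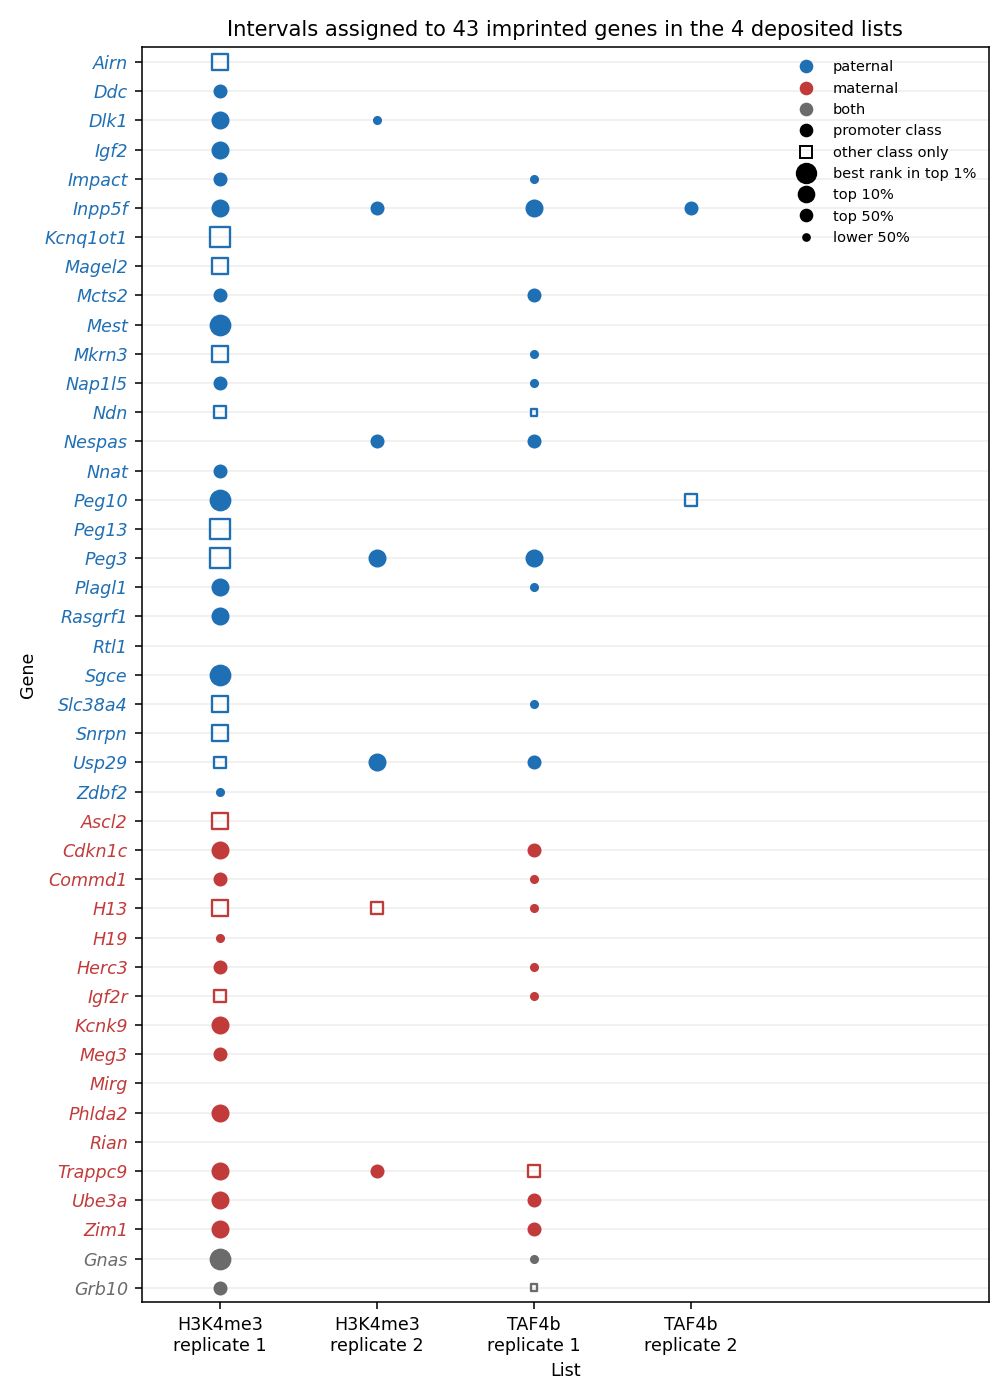
Map of the 43 imprinted genes (rows, coloured by known parental expression) against the 4 lists (columns). A filled circle marks at least 1 promoter-class interval, an open square only intervals of other classes, and the symbol size gives the best score rank as a share of that list. Inpp5f is the gene with promoter-class intervals in all 4 lists (in H3K4me3 replicate 1 at its internal start), and Rtl1, Mirg and Rian have none of any class.

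In replicate 1 the regions at imprinted starts were wider and higher in score than those of most genes. Under the covering rule the median width in replicate 1 was 2308.5 bp for 30 members and 1498 bp for 12809 protein-coding genes. The median member score lay at percentile 86.2 of the protein-coding genes that had such a region, and at 81.4 for the 26 protein-coding members among them. By promoter class the medians were 1635 bp and percentile 72.8 for 26 members, beside 1362.5 bp, and percentile 79.5 for the 24 protein-coding ones. In replicate 2 the 6 members with a promoter region had a median of 573 bp and percentile 70.0, and the 5 protein-coding ones 500 bp and percentile 67.7, where the median width over protein-coding genes was 500 bp. These medians are descriptions over genes that share loci: the 30 members with a covered start held 32 distinct regions, some counted for more than 1 gene.

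Of the 32 member regions at starts, 8 (25.0%) ranked 500 or better by score, where 3.21% of the 12348 regions at protein-coding starts did. That limit was chosen after the values were seen. Starts of 7 members lay in regions of 3000 bp or more: Peg3, Usp29, Peg10, Sgce, Mest, Gnas and Nespas. The 6 protein-coding genes among them were 17.1% of 35, beside 2.26% of all protein-coding genes. By class, 6 of the 7 are paternally expressed, none of the 15 maternally expressed genes is among them, and Gnas is in neither class. Peg3 and Usp29 share 1 region, and so do Peg10 and Sgce, so these are counts of genes and not of separate regions. Nespas is counted with a 3708 bp region that was annotated to an upstream Gnas start.

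**Figure D2:**
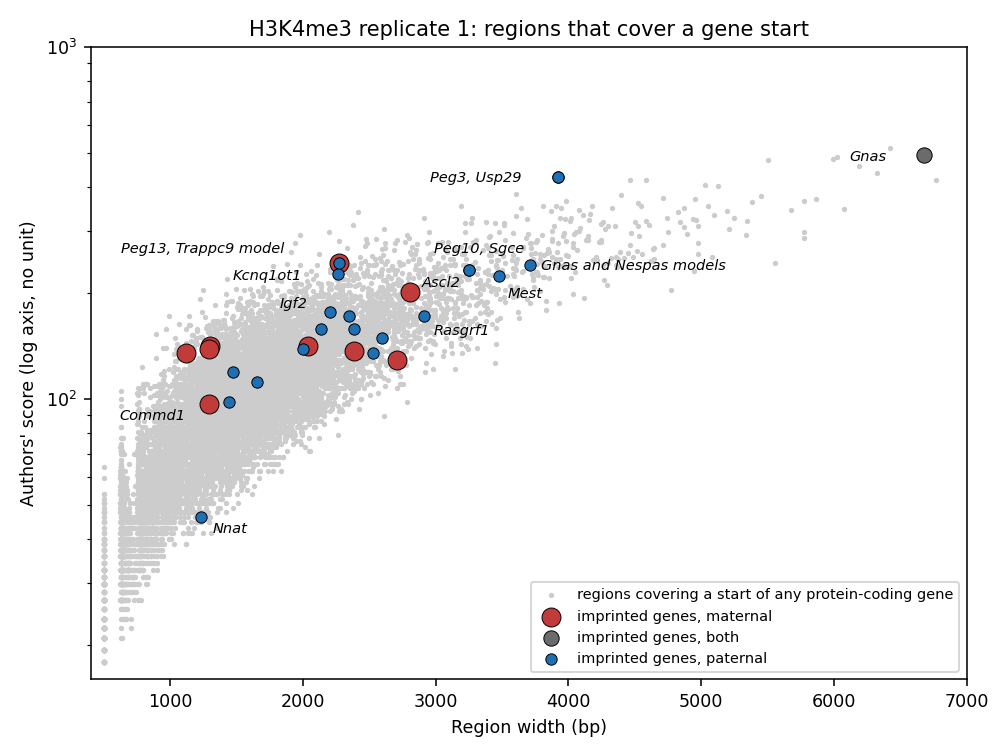
H3K4me3 replicate 1 regions that cover a curated start, by width (bp) and the authors' score (log axis, no unit). Grey points are regions at protein-coding starts and coloured points the best region of each imprinted gene. Concentric points are regions counted for genes of different classes. Peg3 with Usp29 (3922 bp, score 429.3) and Gnas (6675 bp, score 493.4) lie at the upper edge, and Nnat (1235 bp, score 46.2) at the lower.

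The highest and widest region of the set lay in the Gnas locus, which encodes the stimulatory G protein alpha subunit from several promoters together with the antisense lncRNA Nespas. In replicate 1 the region chr2:174136171-174142846 was 6675 bp wide, scored 493.4 and ranked 9 of 64891, and it was 2nd in width. It was annotated to a Gnas start and also holds the start of Nespas used in the deposited lists. Replicate 2 listed a 646 bp region inside it, chr2:174136837-174137483, with a score of 131.4 and rank 424, annotated to Nespas at 22 bp from its start. Other Gnas promoters were marked in replicate 1 as well: the upstream start (Nesp end of the locus) by a 3708 bp region with rank 332, and the locus further downstream by a 4261 bp region with rank 80. A TAF4b peak of replicate 1 lay at Nespas (chr2:174137205-174137347, score 26.3, rank 1122) and another at the upstream Gnas start (score 12.4, rank 4789). No TAF4b peak of replicate 2 was assigned to either gene. In the M39 annotation the canonical Nespas model starts further downstream along Nespas, inside the 3708 bp region, so the covering rule gives Nespas that region instead of the 6675 bp one.

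Peg3, which encodes a zinc-finger protein, and Usp29, which encodes a ubiquitin-specific protease, are divergently transcribed from 1 shared promoter whose first exon and intron form the control region of the locus. A 3922 bp region covered both starts in replicate 1 (chr7:6730282-6734204, score 429.3, rank 15), and its centre fell in a Peg3 intron. Replicate 2 split the same interval into a region at the starts (781 bp, score 176.9, rank 116) and one in the intron (819 bp, score 161.7, rank 168). Those are the best ranks of any member in replicate 2. TAF4b replicate 1 had 3 peaks inside the region, with scores of 29.8, 25.3 and 19.9 at ranks 755, 1269 and 2358. Peg3 and Impact were the 2 members with 3 TAF4b peaks, where 0.451% of protein-coding genes had 3 or more. Zim1, a maternally expressed zinc-finger gene beside Peg3, had its own TAF4b peak (score 25.3, rank 1269) in a 1118 bp region (score 135.6, rank 3897). No peak at these 3 genes was listed in TAF4b replicate 2.

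The control region of Peg3 is known for repeated binding sites of YY1, a zinc-finger transcription factor. Its core was searched as CCATNTT on both strands, with N any base. The 3922 bp region held 13 matches (3.31 per kb), beside 0.919 per kb over the 32 member regions at starts and 0.489 per kb over regions at all protein-coding starts. Both intronic TAF4b peaks held 1 match, and 6.58% of the TAF4b replicate 1 peaks held any. The peaks are shown here because the same core in the same direction appears in both, in capitals; the peak at the starts is shown with CCAAT boxes, on either strand, in capitals, which 39.5% of all TAF4b replicate 1 peaks held. Sequences in this and the following paragraphs are read at GRCm39, the build the submitters' processing notes name for these libraries, 5′ to 3′, with bases of annotated exons left out. A match is a description of letters and not a measured binding site.
Peg3 intron, farther from the start, chr7:6731803-6731945, minus strand: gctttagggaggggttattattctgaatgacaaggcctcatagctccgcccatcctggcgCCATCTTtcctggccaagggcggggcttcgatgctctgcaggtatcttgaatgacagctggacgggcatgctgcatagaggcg
Peg3 intron, nearer to the start, chr7:6732546-6732688, minus strand: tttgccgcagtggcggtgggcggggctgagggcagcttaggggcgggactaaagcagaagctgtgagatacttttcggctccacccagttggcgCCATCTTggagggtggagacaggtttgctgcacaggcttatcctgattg
Peg3 and Usp29 starts, chr7:6733469-6733576, minus strand: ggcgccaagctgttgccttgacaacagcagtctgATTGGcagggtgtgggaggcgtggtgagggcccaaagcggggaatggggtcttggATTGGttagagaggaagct
Nespas, chr2:174137280-174137347, minus strand: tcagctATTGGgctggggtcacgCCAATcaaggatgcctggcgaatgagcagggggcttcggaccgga
The Nespas line gives the upstream part of its peak, with 2 CCAAT boxes on opposite strands. Over all members 7 of 28 TAF4b replicate 1 peaks (25.0%) held a CCAAT box, so the boxes at these starts are not a feature of the whole set.

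**Figure D3:**
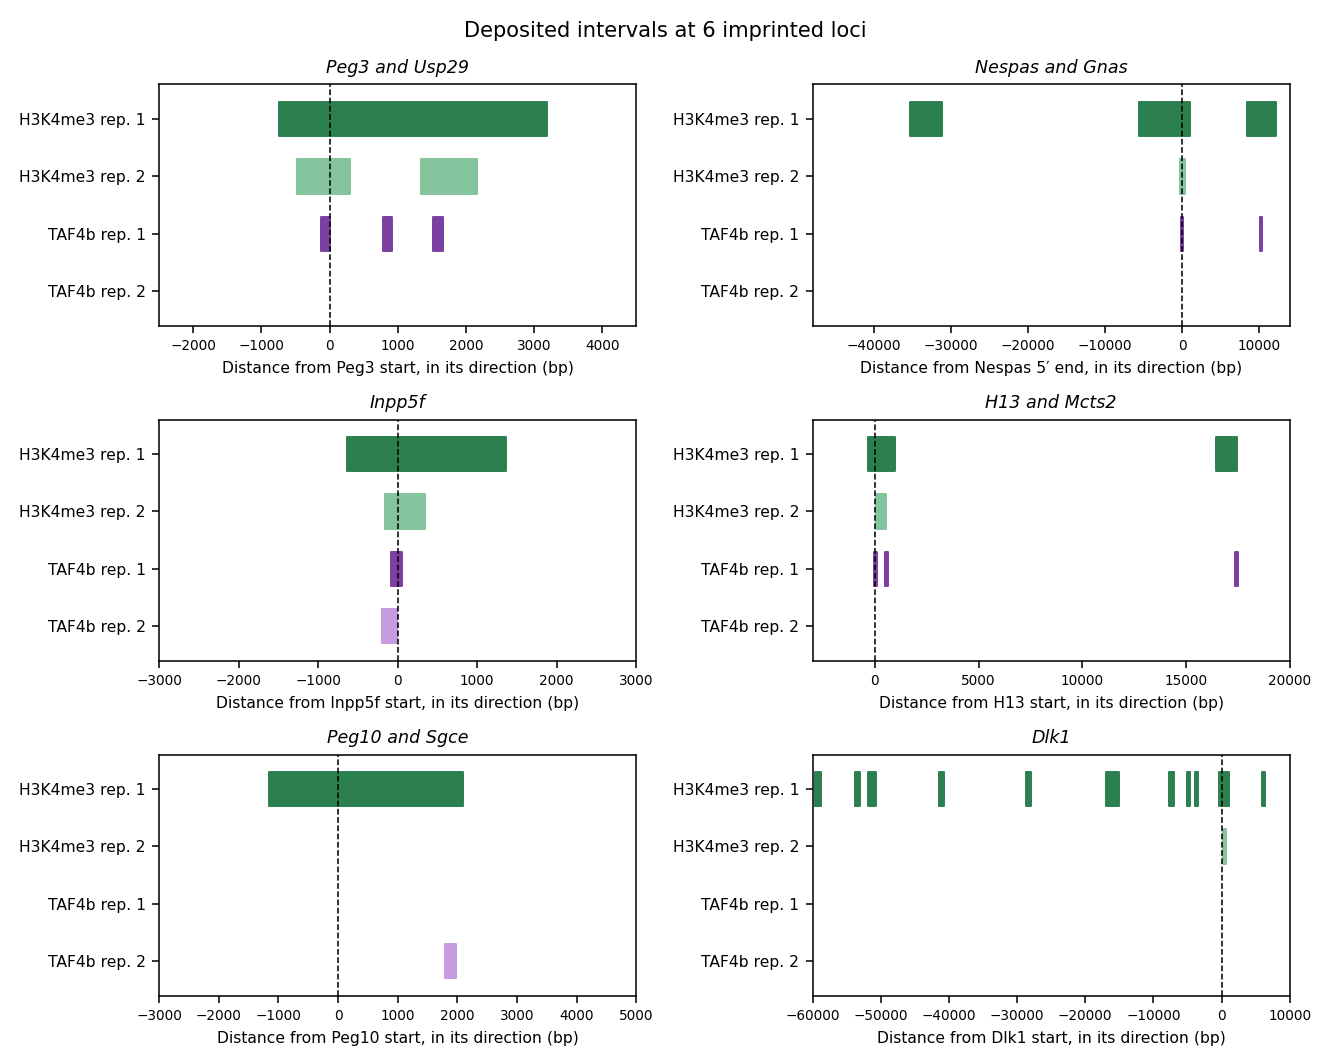
Intervals of the 4 lists at 6 imprinted loci, by distance (bp) from the start named under each panel, positive in that gene's direction. Bars are drawn to scale, except that very short ones are widened to stay visible. At Peg3, 3 TAF4b replicate 1 peaks lie within the 3922 bp H3K4me3 region, and at Inpp5f all 4 lists have an interval over or beside the start.

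Inpp5f encodes an inositol polyphosphate phosphatase, and its imprinted transcript in brain starts at an internal promoter. By gene it was the only member with promoter-class intervals in all 4 lists, which 0.368% of protein-coding genes had. These intervals lie at different starts: the region across the main start in H3K4me3 replicate 1 is classed as exon, and the promoter-class region of that list is the one at the internal start. At the main start, H3K4me3 scored 138.6 in replicate 1 (2002 bp, rank 3630) and 116.2 in replicate 2 (500 bp, rank 711). TAF4b scored 40.2 in replicate 1 (rank 179, the best of the set) and 68.8 in replicate 2 (rank 265), and the 2 peaks overlapped. The internal start was marked separately in replicate 1 by a 774 bp region (chr7:128289268-128290042, score 50.7, rank 28964), with no TAF4b peak.

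Peg10, a retrotransposon-derived gene needed in the placenta, and Sgce, which encodes epsilon-sarcoglycan, share 1 divergent promoter. The H3K4me3 region across both starts was 3252 bp wide in replicate 1, with a score of 232.5 and rank 397. Replicate 2 listed none. Its TAF4b replicate 2 peak (chr6:4749195-4749383, score 68.8, rank 265) lay in an intron of Peg10 at 1883 bp from the start, inside that H3K4me3 region, and overlapped no TAF4b peak of replicate 1. Inpp5f and Peg10 were the only members with a TAF4b replicate 2 peak, and only that of Inpp5f was found in both replicates. The GC box, GGGCGG on either strand, is in capitals; 67.1% of all replicate 2 peaks held one.
Inpp5f upstream part of the replicate 2 peak, chr7:128212814-128212924, plus strand: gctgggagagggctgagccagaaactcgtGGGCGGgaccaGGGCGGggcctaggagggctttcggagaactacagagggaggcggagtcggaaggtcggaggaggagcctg
Peg10 replicate 2 peak, chr6:4749195-4749383, plus strand: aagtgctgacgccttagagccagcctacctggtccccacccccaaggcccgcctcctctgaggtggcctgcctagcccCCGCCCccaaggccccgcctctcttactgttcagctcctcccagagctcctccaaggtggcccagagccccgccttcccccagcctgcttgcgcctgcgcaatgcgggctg

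In TAF4b replicate 1, 18 of 43 members (41.9%) had a promoter peak. Among protein-coding members it was 17 of 35 (48.6%), where 24.9% of all protein-coding genes had one. Among protein-coding members with an H3K4me3 promoter region the share was 11 of 24 (45.8%), beside 39.3% of all such genes. In replicate 2 it was 1 of 35 beside 3.57%. Over both replicates the share of the 43 members was 22.1% ± 28.0 (SD, n = 2). By promoter class the median score of the 18 members was 12.9 beside 17.9 over protein-coding genes with a peak, at percentile 26.3. For the 8 members with a peak that covers a curated start the order turned, with a median of 19.15 beside 17.4, at percentile 57.7.

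By its best promoter-class peak of replicate 1, Inpp5f was followed by Mcts2 and Nespas (score 26.3, rank 1122 each) and by Peg3, Usp29 and Zim1 (score 25.3, rank 1269 each). Cdkn1c, the gene of the cell-cycle inhibitor p57, came next (score 22.8, rank 1718). Ube3a, a ubiquitin ligase gene, had peaks of 18.4 and 8.93 at its start. Peaks at or below a score of 13.4 lay at H13, Commd1, the upstream Gnas start, Slc38a4, Plagl1, Mkrn3, Nap1l5, Herc3, Igf2r and Impact. The lowest was one of the Impact peaks, at 7.94 and rank 7270 of 7861. Of the 20 distinct member promoter peaks, 18 overlapped an H3K4me3 region of replicate 1, and 86.3% of all promoter peaks in that list did. The 2 outside lay at Igf2r, which encodes the receptor that clears IGF2, and at the upstream start of Herc3. Counted by gene, 17 of 18 had a peak in a region, since Herc3 was also counted with the Nap1l5 peak. Outside the promoter class, Grb10 had a replicate 1 peak classed as exon (score 9.93, rank 6002), inside its 1446 bp H3K4me3 region. Gnas had a further one classed as a transcript end (score 8.93, rank 6623).

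Several imprinted genes lie inside others. Mcts2 is a retrogene in an intron of H13, a signal peptide peptidase gene, and Nap1l5 is a retrogene in an intron of Herc3. H13 carried a 1294 bp region at its start in replicate 1 (score 138.6, rank 3630) and a 500 bp region in replicate 2 (score 116.2, rank 711), classed as exon. Mcts2 had a 998 bp region just upstream of its start in replicate 1 (score 52.2, rank 28302) and none in replicate 2. TAF4b was in the reverse order, with 26.3 at Mcts2 and 13.4 at H13. At Nap1l5 a 1655 bp region (score 111.8, rank 7091) held a TAF4b peak of 9.93, and both were also counted for Herc3 as the nearest promoter. Herc3's own start had a TAF4b peak of the same score and no H3K4me3 region. Commd1, a host of an imprinted retrogene, had a 1293 bp region at its start (score 96.9), and its only TAF4b peak (score 12.4) lay 9391 bp or more inside the gene, over the gene model Gm73394 and at the edge of a 1237 bp H3K4me3 region (score 89.4). The retrogene, Zrsr1, was not found in the annotation by that symbol, and whether Gm73394 is its model was not tested. The peak is counted here for Commd1, a maternally expressed gene, and may belong to the retrogene, which is paternally expressed.

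ZFP57 is the zinc-finger protein that keeps methylation at imprinting control regions in the embryo, and it recognises the hexamer TGCCGC, searched on both strands, when methylated. The hexamer was present in 28 of the 32 member regions at starts (87.5%), beside 53.3% of the 12348 regions at protein-coding starts, which are narrower. Per length the rate was 1.61 per kb beside 0.605 per kb. In 300 bp windows around canonical starts 11 of 35 protein-coding members (31.4%) held it, beside 16.2% of all. Of 28 member TAF4b replicate 1 peaks 6 (21.4%) held it, beside 10.6% of all. In single regions the rate was 3.95 per kb at Snrpn, 3.45 at Mest, 3.35 at Airn and 3.02 at Nap1l5. It was 1.33 at Kcnq1ot1, 0.922 at Peg10 and 0.426 at Slc38a4, and no match lay in the Inpp5f region at the main start. Guanine and cytosine content was close to that of other starts, with medians of 56.1% for members and 56.6% for all. The retrogene peaks are shown because they hold the hexamer, in capitals.
Mcts2, chr2:152528722-152528864, plus strand: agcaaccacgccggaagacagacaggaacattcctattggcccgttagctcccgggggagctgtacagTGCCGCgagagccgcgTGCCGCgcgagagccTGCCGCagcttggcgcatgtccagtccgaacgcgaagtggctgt
Nap1l5, chr6:58884087-58884229, minus strand: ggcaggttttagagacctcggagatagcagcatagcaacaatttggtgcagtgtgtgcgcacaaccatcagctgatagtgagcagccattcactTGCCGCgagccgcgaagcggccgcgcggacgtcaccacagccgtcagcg
Mcts2 held 3 hexamers in 143 bases and Nap1l5 held 1.

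Paternally and maternally expressed genes were then compared. By promoter class in H3K4me3 replicate 1, 14 of 26 paternally expressed genes (53.8%) and 10 of 15 maternally expressed genes (66.7%) had a region. In replicate 2 the order was the opposite, 5 of 26 (19.2%) and 1 of 15 (6.67%). Over both replicates the shares were 36.5% ± 24.5 and 36.7% ± 42.4 (SD, n = 2 each). Under the covering rule the paternally expressed genes had the larger share in both replicates, 20 of 26 (76.9%) and 9 of 15 in replicate 1 and 4 of 26 (15.4%) and 1 of 15 (6.67%) in replicate 2. Beside these stand 48.6% of all protein-coding genes by promoter class and 58.9% by the covering rule in replicate 1, and 4.78% and 4.12% in replicate 2. Each class also holds 4 lncRNAs, and under the covering rule all 4 paternally expressed lncRNAs and none of the 4 maternally expressed ones had a region. Among protein-coding members the order in replicate 1 was the same by both rules, with 14 of 22 (63.6%) paternally and 8 of 11 (72.7%) maternally expressed genes by promoter class, and 16 of 22 (72.7%) and 9 of 11 (81.8%) by the covering rule. No test was made, since genes are not replicates, and the direction depended on the rule and on the lncRNAs.

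The ranks also depended on the rule. By promoter class in replicate 1, the median score percentile was 63.2 for the 14 paternally expressed genes and 79.5 for the 10 maternally expressed ones, and the median widths were 1629 and 1635 bp. Under the covering rule it was 90.5 for 20 genes and 78.3 for 9, with median widths of 2364.5 and 2036 bp. The paternally expressed genes spread more widely by promoter class: Peg10, Sgce and Mest lay at percentiles 98.0, 98.0 and 97.6, while Zdbf2, Ddc, Nnat, Inpp5f (by its internal start) and Mcts2 lay between 9.45 and 21.8. Maternally expressed genes reached 84.2 at Trappc9, and H19 was lowest at 14.5. Under the covering rule Trappc9, which encodes a vesicle-trafficking subunit, was counted with the region at Peg13, an lncRNA inside it.

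**Figure D4:**
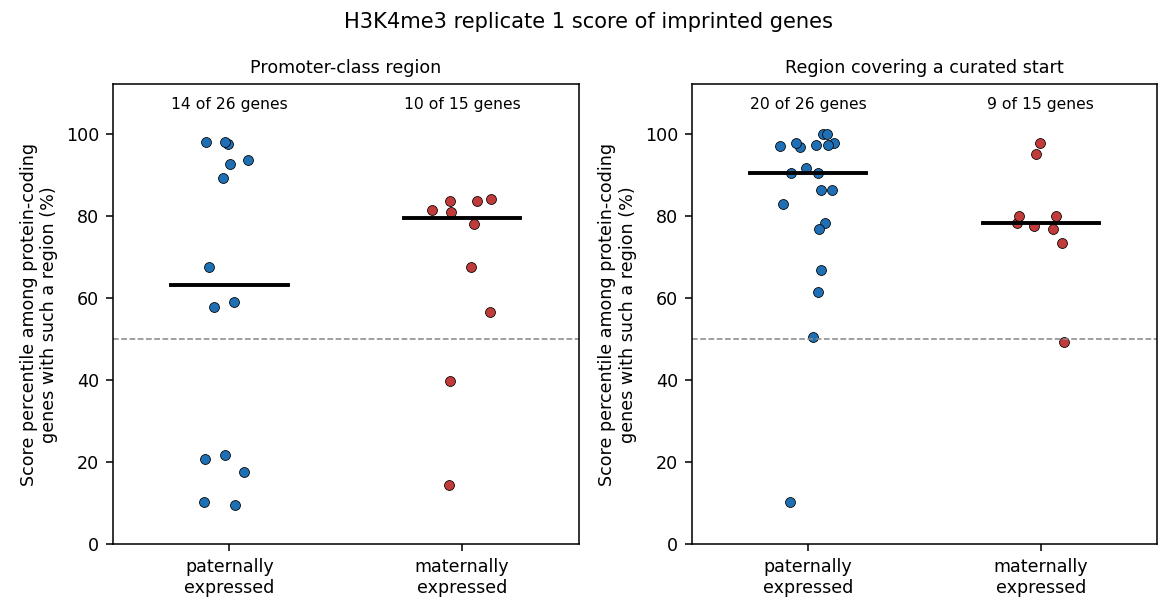
Score percentile in H3K4me3 replicate 1 of paternally and maternally expressed genes among protein-coding genes with such a region, by promoter class (left) and by a region covering a curated start (right). Points are genes, bars medians and the dashed line the median of all protein-coding genes. The paternal median is below the maternal one on the left (63.2 and 79.5) and above it on the right (90.5 and 78.3).

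For TAF4b replicate 1, 10 of 26 paternally expressed genes (38.5%) and 7 of 15 maternally expressed genes (46.7%) had a promoter peak. Among protein-coding members it was 9 of 22 (40.9%) and 7 of 11 (63.6%), beside 24.9% of all protein-coding genes. In replicate 2 it was 1 of 26 and 0 of 15. The median scores in replicate 1 were 18.6 and 13.4. The difference in share changed direction between replicates and was smaller than its spread between them. For H3K4me3 this held by promoter class, while under the covering rule the difference was 12.8 ± 5.8 percentage points (SD, n = 2) in favour of paternally expressed genes; among protein-coding members alone it was 0.0 ± 12.9 (SD, n = 2).

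Grouped by known germline methylation, 16 members start in a maternally methylated region, 9 belong to domains controlled by a paternally methylated region, and 18 are the rest. The maternal class is a fixed list of starts. Igf2r and Cdkn1c, whose domains hold such a region at another gene, are in the rest, and so is Gnas, although its canonical start lies in the same 6675 bp region as the deposited start of Nespas. Under the covering rule Trappc9, also in the rest, takes its score from the region at Peg13, a gene of the first group. By promoter class Herc3 has only the region at Nap1l5, also of the first group. The TAF4b peak counted for Commd1 may belong to the retrogene. Inpp5f and Grb10 are in the rest too, and each has a replicate 1 promoter-class region at an internal start. In H3K4me3 replicate 1 a region covered a start in 14 of 16 genes of the first group (87.5%), 3 of 9 of the second (33.3%) and 13 of 18 of the rest (72.2%). Among protein-coding members these are 10 of 12 (83.3%), 3 of 5 and 13 of 18, beside 58.9% of all protein-coding genes, and among lncRNA members 4 of 4 and 0 of 4, beside 25.5%. The median score percentile of those with a region was 96.8, 90.5 and 78.3. By promoter class the counts were 8 of 16, 6 of 9 and 12 of 18, in the reverse order of the first 2 groups, and the median percentiles were 78.4, 48.7 and 79.5. Among protein-coding members the promoter-class counts are 8 of 12 (66.7%), 4 of 5 and 12 of 18, beside 48.6%, and among lncRNA members 0 of 4 and 2 of 4, beside 6.18%. The first group was thus highest in score in replicate 1 under the covering rule and not by promoter class. In replicate 2 it was highest by promoter class as well, with a median percentile of 92.7 for 3 genes beside 22.5 for 1 and 61.4 for 2. Of these 3 genes, Peg3 and Usp29 share 1 region, which gives the 92.7, and Nespas lay at 72.4. Regions classed as intron or exon, as at Peg3, Snrpn, Kcnq1ot1, Airn and Peg13, count under the covering rule only. TAF4b replicate 1 promoter peaks were at 8 of 16, 0 of 9 and 10 of 18 genes. Among protein-coding members these are 7 of 12, 0 of 5 and 10 of 18, beside 24.9% of all protein-coding genes. Among lncRNA members they are 1 of 4 and 0 of 4, beside 1.42% of all lncRNA genes.

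Among the paternally methylated domains, Igf2, the fetal growth factor gene, had a 2203 bp region (score 177.4, rank 1301), and Rasgrf1, an exchange factor gene, a 2913 bp region (score 172.9, rank 1457). Dlk1, a Notch-pathway ligand gene, was marked in both replicates, with 98.4 at rank 9715 in replicate 1 and 101.1 at rank 1165 in replicate 2. H19, the lncRNA beside Igf2, had a 792 bp region of low score (41.7, rank 35318). Meg3, the lncRNA of the Dlk1 domain, had one of 76.0 (rank 16612). Zdbf2 had one of 34.3 (rank 42412). Taking the best promoter-class region of each member, that was the lowest score, followed by 35.8 at Ddc, a decarboxylase gene of the Grb10 domain. Rian, Mirg and Rtl1, which lie downstream of Meg3, had no interval in any list. No member of these domains had a TAF4b peak of any class. In replicate 1, 29.0% of all protein-coding and 2.56% of all lncRNA genes had one. With 5 protein-coding and 4 lncRNA genes, these domains hold too few genes to tell a count of 0 from those shares.

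Of the members not yet described, those with the best ranks at their starts in replicate 1 follow. Peg13 scored 244.5 (rank 310), Kcnq1ot1, the lncRNA that silences its neighbours in cis, 226.6 (rank 450), and Airn, which does so at Igf2r, 158.0 (rank 2183). Mest, a hydrolase-fold gene, scored 223.6 (rank 477, 3480 bp) and Ascl2, a trophoblast transcription factor gene, 201.2 (rank 743, 2808 bp). Slc38a4, an amino acid transporter gene, scored 172.9 and Plagl1, a zinc-finger transcription factor gene, 158.0. None of these genes was in the H3K4me3 replicate 2 list. Trappc9 was, with 126.3 at rank 523 (143.1 at rank 3197 in replicate 1). All 7 member regions of replicate 2 overlapped a member region of replicate 1.

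Next in the replicate 1 list, with ranks of 2757 to 10404, came genes of the chromosome 7 domains among others. Mkrn3, a ring-finger gene, scored 149.1, Snrpn, a spliceosomal protein gene, 135.6, and Magel2 119.2 at its start, and Ube3a in the same domain scored 141.6. Cdkn1c scored 141.6 and Phlda2, a placental growth gene beside it, 137.1. Kcnk9, a potassium channel gene, scored 129.7, Impact 99.9, and Grb10, a growth factor receptor adaptor gene, 95.4. These regions all lay above the median of 46.2 over all regions of the list, while Nnat, at 46.2, lay on it. Among protein-coding genes with a promoter-class region the median score was 89.4. There Nnat lay at percentile 17.6, Grb10 at 55.6 and Impact at 58.9.

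Genes that write, read or protect imprints were looked at beside the members. H3K4me3 replicate 1 held a promoter region for 16 of 21 such genes (76.2%, beside 48.6% of all protein-coding genes), among them Dnmt1, Dnmt3a, Dnmt3l, Uhrf1, Zfp57 and Trim28, and for 1, Dnmt3a, in replicate 2 (4.76%, near the 4.78% of all). TAF4b promoter peaks were at 9 (42.9%, beside 24.9%) in replicate 1 and at 2 (9.52%, beside 3.57%) in replicate 2. These 2 were Kdm1b, a histone H3K4 demethylase gene (score 38.7, rank 222 in replicate 1, and 56.7, rank 456 in replicate 2), and Arid4b, a chromatin regulator gene (60.1, rank 12, and 64.8, rank 327). H3K4me3 replicate 1 listed a promoter region for 15 of 27 further imprinted genes (55.6%, near the 48.6% of all). Under the covering rule it was 21 of 27 (77.8%), beside 74.3% of protein-coding members and 58.9% of all protein-coding genes. TAF4b replicate 1 listed a promoter peak for 1 of the 27 (3.7%), Copg2, beside 18 of 43 members and 24.9% of all protein-coding genes. In TAF4b replicate 2 it was 1 of 27, Nap1l4, beside 1 of 43 members and 3.57% of all protein-coding genes. Zrsr1 and Gpr1 were not found in the annotation under these symbols and are not among the 27.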

How the data were processed

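Annotated interval lists of the 4 H3K4me3 and TAF4b libraries were analysed, 1 list per library. Per the file headers, H3K4me3 regions were annotated with HOMER on GRCm39 and Ensembl 103. The TAF4b headers name no build, and GRCm39 was taken for them from the submitters' processing notes, which also name HOMER 4.10, Bowtie2 2.3.0, SAMtools 1.9 and Trim Galore 0.5.0. The peak caller's settings and the scaling of the deposited score are not given in the sources used here. The deposited fraction column of the TAF4b lists (focus ratio) was not used. Genes were named from the transcript identifiers through GENCODE M39, which held 98.64% to 99.17% of the nearest-promoter identifiers; Nespas was matched as Gnasas1.

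A promoter interval had the deposited class promoter-TSS. A covered start was a canonical or basic M39 start inside the interval. Overlap meant at least 1 bp. Score percentiles were taken among protein-coding genes with such an interval in the same list. Groups came from the sample titles, no test across libraries was made, and the shares are given per replicate. Counting was tested on planted intervals.

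Members, classes and lists were chosen with earlier results of these data known. All members are named by count, and in full where they had a TAF4b peak, a replicate 2 region, an extreme rank or width, no interval, or a shared locus. Alternatives were other definitions of a promoter interval, the higher-scoring 50% of each list, the widest region per gene, a covered share of 50%, each replicate alone, and leaving out 8 members imprinted mainly in 1 tissue or isoform.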

Additional observations from a re-analysis of the deposited data

How the results depend on the processing

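Most member counts rest on replicate 1 of each antibody, because the replicate 2 lists are short; depth is unknown, and a missing interval is no evidence of absence. No paired analysis was possible because no result comes from a test that a replicate block could enter. The overlaps of TAF4b with H3K4me3 were taken between lists of the same replicate number, and the paternal minus maternal differences within each library, both as descriptions. The share of members with an H3K4me3 promoter region ranged from 13.95% to 60.47% with 1 replicate left out, and that with a TAF4b promoter peak from 2.326% to 41.86%; other settings moved both by less than the spread between replicates. The paternal minus maternal difference in H3K4me3 share was -0.1282 percentage points; it was 12.82 for covered starts, 5.769 for any assigned interval and 5.556 without the narrowly imprinted members, 0.0 for protein-coding members alone by either rule, and -12.82 to 12.56 with 1 replicate left out. For TAF4b it was -2.179; it was -5.641 for covered starts, -9.091 for protein-coding members alone by either rule, 1.538 in the higher-scoring 50% of each list, 2.083 without the narrowly imprinted members, and -8.205 to 3.846 with 1 replicate left out. The median H3K4me3 score percentile of members, 71.43, was 68.93 for the widest region per gene, 74.53 for centres within 1000 bp of a start, 75.0 for covered starts, 73.59 for protein-coding members and 81.7 without the narrowly imprinted members. The paternal minus maternal difference in that percentile was -5.798; it was 8.168 for centres within 1000 bp, 9.75 for covered starts, 8.673 for covered starts of protein-coding members and -16.26 to 4.663 with 1 replicate left out. The difference in median width, 70 bp, was 494 bp for centres within 1000 bp, 234.5 bp for covered starts, 270.8 bp for those of protein-coding members, 600 bp without the narrowly imprinted members (from replicate 1 alone, where it was -6 bp with them) and -6 to 146 bp with 1 replicate left out. Of the 17 genes whose TAF4b replicate 1 peak lay in an H3K4me3 region of that replicate, 5 had it in one of replicate 2. Counted by peak, 4 of 20 member promoter peaks lay in a replicate 2 region, beside 8.36% of all promoter peaks of TAF4b replicate 1. Settings with protein-coding members alone were chosen after seeing the data. The cause of these changes was not tested.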

Other observations

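Some imprinted genes carried H3K4me3 far from their annotated starts in replicate 1. Dlk1 had 12 regions, 10 of them intergenic and the farthest centred at -93052 bp from its canonical start (negative values lie upstream); the best of these, 1889 bp wide at -15962 bp, scored 131.2 (rank 4309), above the 98.4 of the region at the start. Slc38a4 had 10 regions between -33853 and 83666 bp from its canonical start, of which the one at the start scored highest (172.9). Rasgrf1 had a small region at -29562 bp (629 bp, score 46.2, rank 32342); whether it overlaps the control region known upstream of this gene was not tested.

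At Plagl1 the highest score was far from the canonical start: 183.3 (rank 1142, 1657 bp) at 37372 bp downstream, with a TAF4b replicate 1 peak of 9.43 inside it, beside 158.0 (rank 2183) at that start with a peak of 11.9. Magel2, a MAGE family gene, had 180.4 (rank 1227) at 2574 bp inside its gene body and 119.2 (rank 5799) at its start. Trappc9 had its only TAF4b peak (score 29.3, rank 798) at -6213 bp, inside a 1416 bp H3K4me3 region of score 68.6. That TAF4b rank was better than those of all member promoter peaks except Inpp5f. Ndn, another MAGE family gene, had a TAF4b peak of 14.4 at 1650 bp inside a 1607 bp region of score 101.4. These loci were chosen after their values were seen.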
